A study of Mus musculus with 18 samples.

Results

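The genes described here supply the retina with visual pigment: *Rpe65*, *Lrat*, *Rgr*, *Rlbp1*, *Rdh5* and *Rdh10* of the visual cycle, and *Stra6*, *Ttr* and *Rbp4* of retinol transport. They are 9 of the 52636 genes in the count table. They were chosen from their measured levels in these libraries, by how the injected groups stood against the uninjected group, so values against uninjected are descriptions without a test. The comparisons among the injected groups were tested, but earlier results of these data were known when the genes were chosen, so the tests are not independent of the choice. The study asked which genes of the retinal pigment epithelium (RPE), the pigmented cell layer behind the retina, change when SREBP2 or *Lrp2* is altered and the eye grows too large.

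RNA-seq of mouse RPE gave 18 libraries in 6 groups of 3. All mice were C57BL/6 and were sampled at postnatal day 14, and each library held both eyes of 1 mouse. The uninjected group received no virus. The other 5 groups received an AAV8-Best1 virus under the retina of newborn pups, in which AAV8 is an adeno-associated virus and *Best1* is a promoter that limits expression to the RPE. The GFP group carried green fluorescent protein, and the nSREBP2 group carried the nuclear, active form of SREBP2. The ctrl sh group carried a hairpin against LacZ, a bacterial gene that mice lack, and the *Lrp2* sh1 and *Lrp2* sh2 groups carried hairpins against *Lrp2*. The hairpin viruses carried mCherry in place of GFP, so GFP and ctrl sh differ in more than the hairpin, and no group had an injection without virus among these libraries. The labels call the tissue retinal, although the retina was taken out before the RPE was dissociated from the eyecup.

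In the visual cycle, light converts the chromophore of rhodopsin from its cis to its trans form, and the RPE turns it back. LRAT esterifies retinol, RPE65 isomerises the ester to the cis form, RDH5 oxidises it, and CRALBP, the product of *Rlbp1*, binds it. RGR is an opsin-like protein of the RPE that takes part in light-driven recovery of the chromophore, and RDH10 oxidises retinol to retinal. Retinol reaches the RPE in the blood on RBP4, which travels bound to transthyretin, the product of *Ttr*, and STRA6 is the RPE receptor that takes it up. *Rbp4* is transcribed mainly in the liver, whereas *Ttr* is transcribed in the RPE as well as in the liver and the choroid plexus.

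Depth was 8921885 to 13696934 counts per library, so that 3 counts, the upper limit that a count of 0 allows, correspond to 0.219 to 0.336 CPM, counts per 1000000 counts of a library. *Lrp2* stood at 87.8 to 166 CPM in ctrl sh, 29.8 to 42.8 in *Lrp2* sh1 and 34.7 to 43.7 in *Lrp2* sh2. *Srebf2*, the gene of SREBP2, stood at 208 to 233 CPM in nSREBP2 and at 83.7 to 121 in the other 5 groups. Of 11 RPE markers, 10 were detected and *C1qtnf5* was listed at 0 in all libraries. The RPE markers summed to 457 to 2463 CPM, against 18543 to 85415 for 6 fibroblast markers. The summed CPM of the fibroblast markers thus exceeded that of the RPE markers in every library. These sums depend on which genes were listed, so numbers of cells are not read from them. Fewer RPE cells in a sample and less RNA of a gene per cell cannot be told apart in these libraries.

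The libraries of a group did not always stand together for these genes. Uninjected replicate 1 had lower levels than the other uninjected replicates: the mean of replicates 2 and 3 was 2.03 to 3.25 times its level for the 9 genes. The RPE markers *Otx2*, *Mfrp* and *Krt18* had like ratios, at 2.85, 2.89 and 2.93, while *Mertk* had 1.14 and *Best1* 1.17. ctrl sh replicate 1 stood above the other ctrl sh replicates by 44.6 times for *Rpe65* and 12.9 times for *Rgr*. For *Rlbp1*, *Rdh5*, *Stra6* and *Lrat* it stood above them by 3.04 to 4.19 times. Of the RPE markers, *Slc16a8* and *Ermn* stood above by 3.69 and 3.78 times and *Itgb8* by 1.9 times, and the other 7 detected markers had ratios of 0.969 to 1.36. *Lrp2* sh1 replicate 2 stood above its group by 10.1 times for *Rpe65* and 3.22 times for *Rgr*, and *Lrp2* sh2 replicate 3 by 3.47 and 2.8 times.

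**Figure D1:**
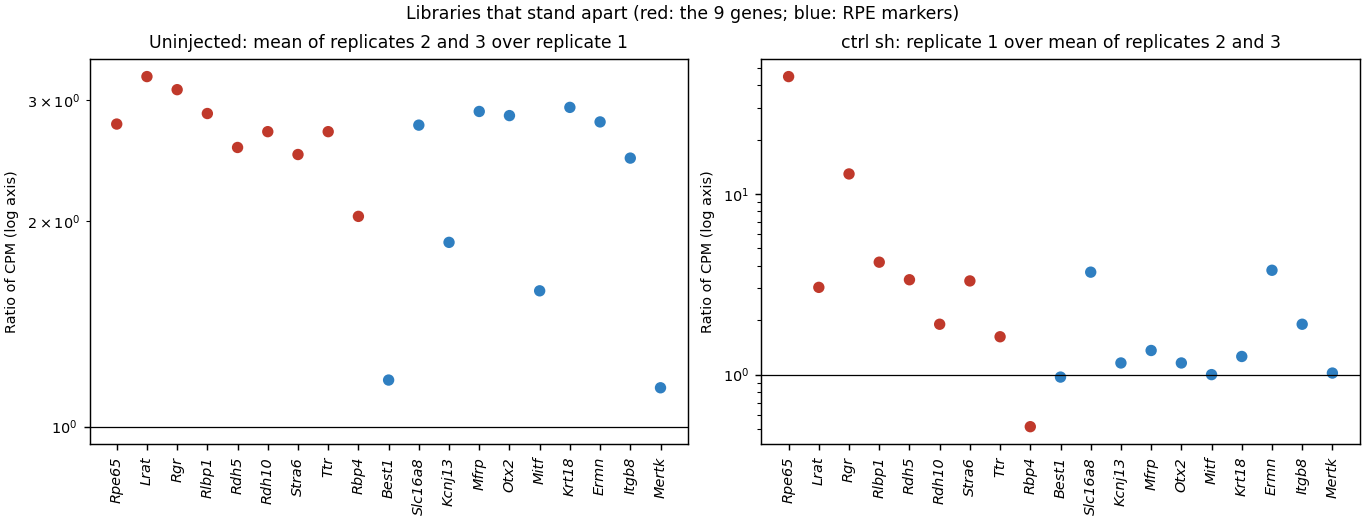
Ratio of CPM between the library that stands apart and the rest of its group, on a log axis, for the 9 genes (red) and 10 RPE markers (blue). The left panel divides the mean of uninjected replicates 2 and 3 by replicate 1, and most points lie between 2 and 3. The right panel divides ctrl sh replicate 1 by the mean of replicates 2 and 3, and *Rpe65* at 44.6 and *Rgr* at 12.9 lie above all markers, while *Rlbp1*, *Rdh5*, *Stra6* and *Lrat* (3.04 to 4.19) lie beside the markers *Ermn* (3.78) and *Slc16a8* (3.69).

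Compared per kilobase of exon in uninjected RPE, *Ttr* had the highest level of the 9 genes, at 1419 ± 652 CPM per kb (SD, n = 3). *Rpe65* followed at 425 ± 204 CPM per kb and *Rgr* at 315 ± 164. *Rlbp1*, *Lrat* and *Rdh10* had 168, 117 and 116 CPM per kb, *Rdh5* had 75.9 and *Stra6* had 45.1. Uninjected replicate 1 was the lowest of the 3 for each gene. *Rbp4* had 0.514 ± 0.214 CPM per kb, from 2 to 15 counts in each of the 18 libraries, and was close to the detection limit throughout. Exon lengths came from GENCODE M21 and the exons of *Rdh5* share 720 bases with *Bloc1s1* on the same strand, so the count of *Rdh5* is uncertain.

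The promoters of 7 of the genes were examined because 8 of the 9 genes had their highest group mean in uninjected. No window of *Ttr* or *Rdh10* was searched, so the motif counts do not cover these genes. The RefSeq windows run from 250 bases before to 50 after each gene start on GRCm38.p6, and *Stra6* and *Rbp4* have more than 1, which gave 11 windows. Those of *Rpe65*, *Rgr* and *Rlbp1* are shown because they held a searched motif, and that of *Lrat* because it had none and yet *Lrat* differed most widely between the hairpins. Capitals mark a motif on either strand, and 30 bases after the start are printed.
*Rpe65*, chr3:159598931-159599210, plus strand: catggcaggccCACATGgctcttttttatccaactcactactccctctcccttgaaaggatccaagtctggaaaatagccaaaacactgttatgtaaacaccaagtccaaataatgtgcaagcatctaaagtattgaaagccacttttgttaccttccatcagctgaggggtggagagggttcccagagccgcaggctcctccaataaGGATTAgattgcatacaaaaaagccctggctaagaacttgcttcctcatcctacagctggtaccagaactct
*Rgr*, chr14:37048985-37049264, minus strand: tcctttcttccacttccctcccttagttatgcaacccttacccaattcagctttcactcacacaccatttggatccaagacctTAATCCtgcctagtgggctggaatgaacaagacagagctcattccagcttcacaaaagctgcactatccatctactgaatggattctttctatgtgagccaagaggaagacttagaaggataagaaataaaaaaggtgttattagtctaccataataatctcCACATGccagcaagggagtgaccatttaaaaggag
*Rlbp1*, chr7:79386998-79387277, minus strand: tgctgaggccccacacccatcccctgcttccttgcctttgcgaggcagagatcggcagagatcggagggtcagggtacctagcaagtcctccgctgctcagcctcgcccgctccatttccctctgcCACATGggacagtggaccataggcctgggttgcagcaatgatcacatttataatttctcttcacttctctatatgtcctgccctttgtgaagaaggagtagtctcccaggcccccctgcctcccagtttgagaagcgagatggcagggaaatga
*Lrat*, chr3:82903945-82904224, minus strand: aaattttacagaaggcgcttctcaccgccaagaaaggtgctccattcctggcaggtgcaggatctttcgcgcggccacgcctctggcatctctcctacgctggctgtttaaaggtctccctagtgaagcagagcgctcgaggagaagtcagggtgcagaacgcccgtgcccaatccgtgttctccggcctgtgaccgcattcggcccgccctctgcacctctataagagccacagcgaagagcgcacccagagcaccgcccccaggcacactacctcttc

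The E-box CATGTG, searched on both strands, was found in 3 of the 11 windows (those of *Rpe65*, *Rgr* and *Rlbp1*) and in 14.2% of all 32851 windows. It began 239 bases before the start of *Rpe65*, 124 before that of *Rlbp1* and 5 before that of *Rgr*. TAATCC, a site of OTX factors, was found in 2 of the 11 windows, those of *Rpe65* and *Rgr*, and in 7.06% of all windows. It began 42 bases before the start of *Rpe65* and 167 before that of *Rgr*. The E-box CACGTG and the sterol regulatory element TCACNCCAC were in none of the 11 windows, against 7.15% and 1.24% of all windows. These are matches of letters in short windows and not sites of binding.

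*Rpe65*, on chromosome 3 (159599175 to 159625321, plus strand), had the widest range. In uninjected RPE its level was 377, 957 and 1131 CPM. In GFP it was 2.31, 1.06 and 1.58 CPM, from 27, 12 and 21 counts, and in nSREBP2 it was 3.73, 2.46 and 3.18 CPM. The isomerase was thus at a few CPM in every GFP and nSREBP2 library, far under the lowest uninjected library. In ctrl sh it was 97.1, 2.58 and 1.77 CPM, in *Lrp2* sh1 3.56, 44.1 and 5.18, and in *Lrp2* sh2 3.51, 5.47 and 15.6. In each hairpin group 1 library lay above the others, and all 15 injected libraries lay below the lowest uninjected library. The order of group means of log2 CPM was uninjected, *Lrp2* sh1, ctrl sh, *Lrp2* sh2, nSREBP2 and GFP. Only the first and the last pair of neighbours in that order did not overlap.

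*Rgr*, on chromosome 14 (37034909 to 37048964, minus strand), was 627, 1760 and 2140 CPM in uninjected RPE. It was 27.5, 19 and 11.5 CPM in GFP and 23.5, 17.7 and 18.8 in nSREBP2. It was 420, 31.9 and 33.1 CPM in ctrl sh, 64.5, 250 and 90.5 in *Lrp2* sh1 and 16.5, 22.8 and 55.1 in *Lrp2* sh2. The high library of each hairpin group was the same one as for *Rpe65*. All 15 injected libraries again lay below the lowest uninjected library, and the order of the groups was that of *Rpe65*. Among neighbours in the order only uninjected and *Lrp2* sh1 did not overlap.

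*Lrat*, on chromosome 3 (82892579 to 82903973, minus strand), was 250, 747 and 880 CPM in uninjected RPE and 311, 93.1 and 112 in ctrl sh. It was 67.9, 149 and 65.7 CPM in *Lrp2* sh1 and 27.8, 28.3 and 20.3 in GFP. It was 8.94, 9.3 and 9.1 CPM in nSREBP2 and 8.86, 5.64 and 9.01 in *Lrp2* sh2. The gene that makes retinyl esters thus fell into 3 levels that did not overlap among the injected groups: ctrl sh with *Lrp2* sh1, then GFP, then nSREBP2 with *Lrp2* sh2. Its order of groups was uninjected, ctrl sh, *Lrp2* sh1, GFP, nSREBP2 and *Lrp2* sh2.

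*Ttr* had another order, with ctrl sh close to uninjected. It was 790, 2152 and 2108 CPM in uninjected RPE, 1940, 1135 and 1263 in ctrl sh, and 735, 1129 and 791 in *Lrp2* sh1. It was 117, 123 and 321 CPM in *Lrp2* sh2, 136, 94.2 and 82.5 in nSREBP2, and 72.9, 62.2 and 40.7 in GFP. The lowest group of the thyroxine and retinol carrier was therefore a control vector, GFP, while the other control vector overlapped uninjected. *Rdh10*, on chromosome 1 (16105774 to 16133734, plus strand), followed a like order. It was 226, 553 and 668 CPM in uninjected RPE, 609, 312 and 330 in ctrl sh and 260, 358 and 277 in *Lrp2* sh1. In *Lrp2* sh2, GFP and nSREBP2 it was 74.4 to 109 CPM, and the 3 groups overlapped one another.

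*Rlbp1*, *Rdh5* and *Stra6* had narrower ranges. *Rlbp1*, the retinoid-binding protein gene on chromosome 7 (79374870 to 79387048, minus strand), was 220, 618 and 647 CPM in uninjected RPE. It was 313, 72.9 and 76.6 CPM in ctrl sh and 128, 203 and 140 in *Lrp2* sh1, and it was 37.7 to 80.3 in GFP, nSREBP2 and *Lrp2* sh2. *Rdh5*, the dehydrogenase gene on chromosome 10 (128913593 to 128922888, minus strand), was 105, 269 and 266 CPM in uninjected RPE and 107, 32.7 and 31.2 in ctrl sh. It was 53.7, 58.5 and 40.4 CPM in GFP, 56, 72.5 and 53.4 in *Lrp2* sh1, 26.1, 24.6 and 20 in nSREBP2 and 17.8, 16.8 and 22.4 in *Lrp2* sh2. For both genes ctrl sh replicate 1 lay above the lowest uninjected library and all other injected libraries lay below it. *Stra6*, the receptor gene on chromosome 9 (58063788 to 58153996, plus strand), was 131, 334 and 322 CPM in uninjected RPE and 211, 67.6 and 60.1 in ctrl sh. It was 51.7, 72.5 and 64.6 CPM in *Lrp2* sh1, 55, 40.8 and 57.7 in *Lrp2* sh2, 41.8, 35.5 and 33.3 in nSREBP2 and 32.9, 33.2 and 19.4 in GFP. *Rbp4*, the serum carrier gene on chromosome 19 (38116629 to 38125281, minus strand), lay between 0.168 and 1.17 CPM in all libraries, and all neighbours in its order overlapped.

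**Figure D2:**
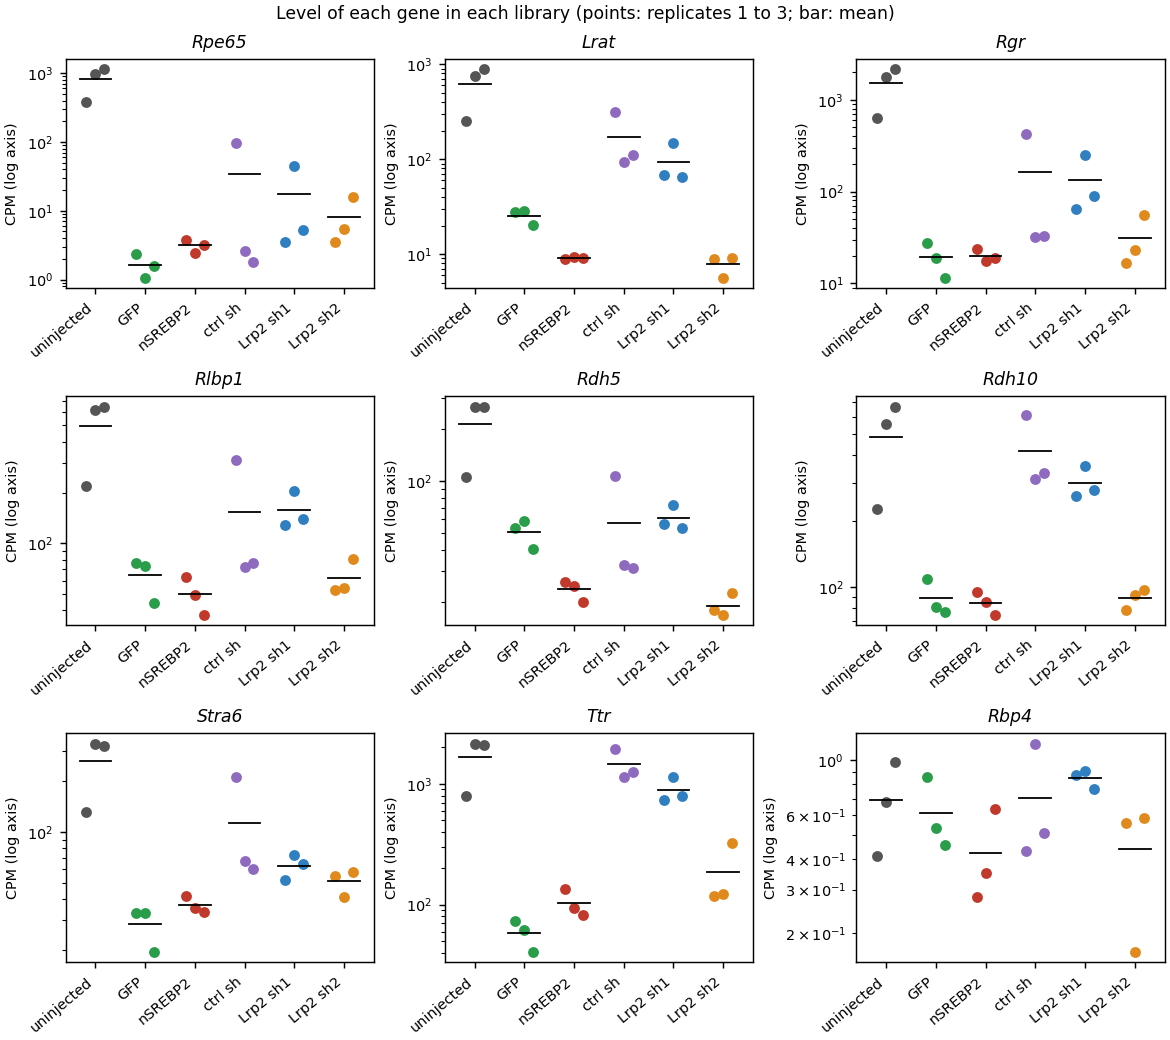
CPM of each gene in each library on log axes with their own range, by group, with points for replicates 1 to 3 from left to right and a bar at the mean of CPM. The uninjected points lie highest for *Rpe65* (377 to 1131 CPM) and *Rgr* (627 to 2140 CPM), ctrl sh replicate 1 lies above the rest of its group for all genes but *Rbp4*, and *Rbp4* shows no separation of groups.

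Set against uninjected, 8 of the 9 genes were lower by over 2-fold without overlap of libraries in GFP, nSREBP2 and *Lrp2* sh2, 6 in *Lrp2* sh1 and 2 in ctrl sh. Over all 19744 genes that passed the filter on low counts, 2.65% were so in GFP, 5.54% in nSREBP2, 4.45% in *Lrp2* sh2, 4.65% in *Lrp2* sh1 and 2.61% in ctrl sh. The 9 genes were chosen on this contrast, so nothing is read from the counts. Without uninjected replicate 1, ctrl sh replicate 1 and *Lrp2* sh1 replicate 2, the counts were 8 in 4 groups and 6 in ctrl sh, beside 3.15% of all genes in GFP, 5.83% in nSREBP2, 3.93% in ctrl sh, 5.01% in *Lrp2* sh1 and 4.75% in *Lrp2* sh2. The count in ctrl sh was 6 without ctrl sh replicate 1 alone (3.85% of all genes) or uninjected replicate 1 alone (3.02%), and that in *Lrp2* sh2 was 8 without its replicate 3 (4.63%). *Rbp4* was the gene outside the count in GFP, nSREBP2 and *Lrp2* sh2, and *Rdh10* and *Ttr* were also outside it in *Lrp2* sh1.

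The difference of mean log2 CPM from uninjected was -8.73 for *Rpe65* in GFP, a 423-fold lower geometric mean, and -7.83 in nSREBP2. In ctrl sh its difference was -6.53, and it was -8.32 without ctrl sh replicate 1. For *Rgr* the differences ran from -6.18 in GFP to -3.55 in *Lrp2* sh1, with -4.12 in ctrl sh that was -5.35 without ctrl sh replicate 1, and for *Lrat* from -6.13 in *Lrp2* sh2 to -1.89 in ctrl sh. The difference of *Ttr* was -4.74 in GFP and -0.12 in ctrl sh, and that of *Rdh10* was -2.31 and -0.14. The differences of *Rlbp1*, *Rdh5* and *Stra6* lay between -3.36 and -1.35 in the 5 injected groups. Those of *Rbp4* lay between -0.54 and 0.30. The median difference over the 9 genes was -3.12 in GFP, -3.18 in nSREBP2, -1.88 in ctrl sh, -1.70 in *Lrp2* sh1 and -3.20 in *Lrp2* sh2, while that over all genes was within 0.02 of 0. Counts of Y-linked genes were present in 1 uninjected, 3 nSREBP2 and 2 *Lrp2* sh2 libraries, and in 0 of GFP, ctrl sh and *Lrp2* sh1. The groups set against uninjected were thus not balanced for sex, and the part of sex in these differences was not tested.

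**Figure D3:**
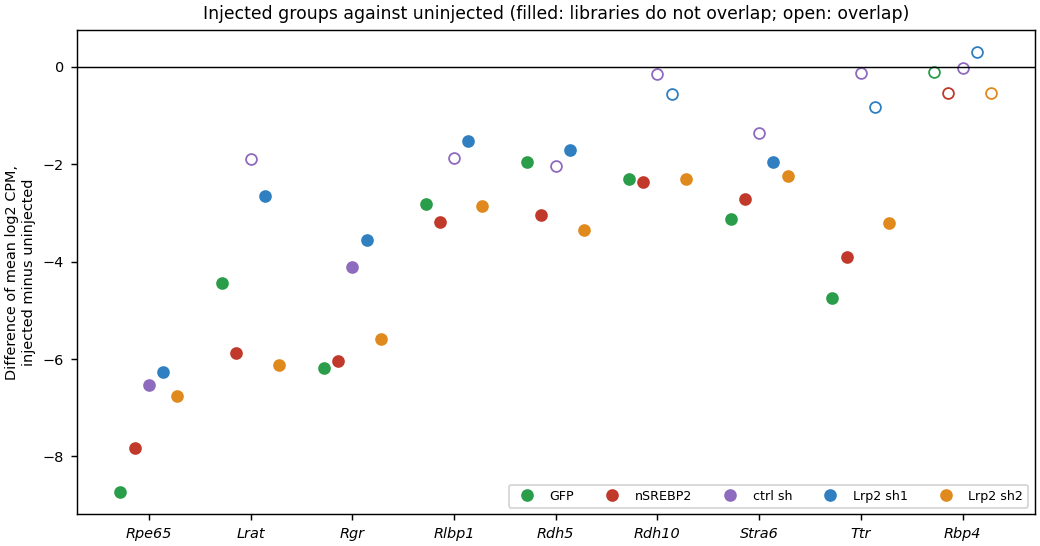
Difference of mean log2 CPM between each injected group and uninjected (3 libraries each) for the 9 genes, as a description without a test. Filled points mark groups whose libraries do not overlap those of uninjected, and open points mark overlap. *Rpe65* reaches -8.73 in GFP, while *Ttr* and *Rdh10* are near 0 in ctrl sh.

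nSREBP2 was compared with GFP to ask what active SREBP2 adds to the virus itself. *Lrat* fell and *Rdh5* fell, and *Ttr* rose by less than 2-fold. *Lrat* was 9.11 ± 0.181 CPM in nSREBP2 and 25.5 ± 4.49 in GFP (SD, n = 3), with a log2FC of -1.47 ± 0.14 (SE, adjusted *P* = 0.000105). *Rdh5* was 23.6 ± 3.16 and 50.8 ± 9.39 CPM, with a log2FC of -1.10 ± 0.15 (adjusted *P* = 0.000648). *Ttr* was 104 ± 28.2 and 58.6 ± 16.4 CPM, with a log2FC of 0.84 ± 0.22 (adjusted *P* = 0.0229). So the ester-forming and the oxidising enzyme were lower in nSREBP2 where the carrier was higher, and the libraries of the groups did not overlap for these 3 genes.

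Of the 8 genes tested, 3 were significant (adjusted *P* under 0.05) and 2 were differentially expressed (also an absolute log2FC above 1), against 21% and 6.67% of 17927 genes. *Rpe65* (log2FC 0.91, 95% CI 0.20 to 1.63, adjusted *P* = 0.0706), *Stra6* (0.38, -0.03 to 0.79, adjusted *P* = 0.182) and *Rlbp1* (-0.36, -0.85 to 0.13, adjusted *P* = 0.288) did not pass the test. *Rdh10* and *Rgr* had log2FCs of -0.06 (-0.37 to 0.24) and 0.06 (-0.52 to 0.64), which bound the differences between these libraries to less than 2-fold in this fit only. *Rbp4* did not pass the filter on low counts. The 3 nSREBP2 libraries held counts of Y-linked genes and the GFP libraries did not. Within these 6 libraries sex and treatment therefore cannot be told apart, and the intervals do not bound the effect of nSREBP2 alone. With all 18 libraries in one fit, none of the 9 genes passed (adjusted *P* of *Lrat* 0.056, of *Rdh5* 0.0596 and of *Ttr* 0.157), beside 4162 of all genes. With a term for sex none did either (0.107, 0.124 and 0.927), beside 2178 of all genes, and the log2FC of *Rgr* then lay below the interval given above. *Ttr* also lost its call without nSREBP2 replicate 1 (adjusted *P* = 0.0819) or GFP replicate 2 (0.061) and with DESeq2 (0.0512), *Rpe65* gained one without GFP replicate 1 (log2FC 1.21, adjusted *P* = 0.0479) and *Rlbp1* without GFP replicate 3 (log2FC -0.58, adjusted *P* = 0.0302). The differentially expressed of the 9 were 4 without GFP replicate 1 (967 of all genes), and 1 without nSREBP2 replicate 3 (1061) or GFP replicate 2 (984).

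*Lrp2* sh1 was compared with ctrl sh to ask what loss of *Lrp2*, the endocytic receptor megalin, adds to a hairpin virus. None of the 9 genes was significant with edgeR or with DESeq2, against 5.33% of 17801 genes significant and 0.994% differentially expressed. At an unadjusted *P* under 0.05 there was 1, *Ttr*, at 885 ± 213 CPM in *Lrp2* sh1 and 1446 ± 433 in ctrl sh (log2FC -0.71 ± 0.21, adjusted *P* = 0.0861). It was the only one of the 9 whose libraries did not overlap, and then by little, with 1129 CPM against 1135. The intervals were wide for *Rpe65* (log2FC -0.96, 95% CI -3.77 to 1.85) and *Rgr* (-0.27, -2.24 to 1.70), so large changes of these genes were not detectable in either direction.

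ctrl sh replicate 1 decided the direction of several of these values. Without it, *Rgr* had a log2FC of 2.05 (adjusted *P* = 0.029), *Rlbp1* 1.07 (0.00367) and *Rdh5* 0.92 (0.00164), and *Rpe65* had 3.0 (0.122). Leaving out *Lrp2* sh1 replicate 2 as well gave 5 significant genes of the 9, among 881 significant of all genes: *Rgr* at 1.25, *Rlbp1* at 0.84 and *Rdh5* at 0.77, with *Ttr* at -0.65 and *Lrat* at -0.62. These 2 libraries were left out after they were seen to stand apart for these same genes, and 2 libraries remained in each group. No direction of *Rgr*, *Rlbp1* and *Rdh5* is therefore read from these fits.

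*Lrp2* sh2 was also compared with ctrl sh, and 4 of the 8 genes tested fell. *Lrat* was 7.84 ± 1.9 CPM in *Lrp2* sh2 and 172 ± 121 in ctrl sh (log2FC -4.44 ± 0.48, adjusted *P* = 0.00038). *Ttr* was 187 ± 116 and 1446 ± 433 CPM (log2FC -2.94 ± 0.38, adjusted *P* = 0.001). *Rdh10* was 89 ± 9.65 and 417 ± 166 CPM (log2FC -2.22 ± 0.23, adjusted *P* = 0.000359). These are an esterifying enzyme, a carrier and a retinol dehydrogenase, and none of their libraries overlapped.

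*Rdh5* also fell, from 57 ± 43.4 CPM in ctrl sh to 19 ± 2.95 in *Lrp2* sh2 (log2FC -1.58 ± 0.43, adjusted *P* = 0.0327). Its call was lost without *Lrp2* sh2 replicate 1, 2 or 3 (adjusted *P* = 0.0945, 0.116 and 0.0528) and with DESeq2 (0.0586), and its log2FC was -0.75 without ctrl sh replicate 1. All 4 genes were differentially expressed, against 18.1% of 18089 genes significant and 4.76% differentially expressed. *Rgr* (log2FC -2.36, adjusted *P* = 0.115), *Rpe65* (-2.05, 0.283), *Rlbp1* (-1.30, 0.106) and *Stra6* (-1.13, 0.0922) did not pass the test, and *Stra6* reached the threshold without ctrl sh replicate 3 (-1.44, adjusted *P* = 0.05). Without ctrl sh replicate 1 these log2FCs were -0.05 for *Rgr*, 1.90 for *Rpe65*, -0.26 for *Rlbp1* and -0.32 for *Stra6*, while *Lrat*, *Ttr* and *Rdh10* had -3.70, -2.68 and -1.85 (adjusted *P* = 2.77e-05, 0.00197 and 2.93e-05). The median log2FC over the 8 genes was -2.14, against 0.01 over all genes, and it was -0.54 without ctrl sh replicate 1.

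The hairpins share the ctrl sh libraries, so the difference between them was tested directly. *Lrp2* itself did not differ detectably between them, at 38.7 ± 4.59 CPM in *Lrp2* sh2 and 36.9 ± 6.62 in *Lrp2* sh1 (log2FC 0.08, 95% CI -0.22 to 0.37, adjusted *P* = 0.728). Of the 8 visual cycle and transport genes tested, 6 were lower in *Lrp2* sh2, all 6 differentially expressed, against 22.4% of 17975 genes significant and 5.13% differentially expressed. *Lrat* had a log2FC of -3.57 ± 0.34 (adjusted *P* = 6.83e-05), an 11.9-fold difference. *Ttr* had -2.23 ± 0.35 (adjusted *P* = 0.00153) and *Rdh10* had -1.74 ± 0.12 (adjusted *P* = 1.15e-05). *Rdh5* had -1.67 ± 0.14 (adjusted *P* = 3.09e-05) and *Rlbp1* -1.32 ± 0.20 (adjusted *P* = 0.00104), the latter with an adjusted *P* of 0.0597 when all 18 libraries entered one fit.

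*Rgr* had a log2FC of -2.09 ± 0.53 (adjusted *P* = 0.018), and its call was lost without *Lrp2* sh2 replicate 1 (adjusted *P* = 0.0606), *Lrp2* sh2 replicate 2 (0.0738) or *Lrp2* sh1 replicate 2 (0.061), and in one fit of all 18 libraries (0.082). *Stra6*, the receptor, had a log2FC of -0.29 (95% CI -0.61 to 0.03, adjusted *P* = 0.188). In this fit only, the interval bounds the difference of *Stra6* between these libraries to less than 2-fold. *Rpe65* had -1.10 (-2.98 to 0.78, adjusted *P* = 0.398), and 0.91 without *Lrp2* sh1 replicate 2. The hairpin groups thus differed in 6 of these genes, and not detectably in *Stra6*, *Rpe65* or *Lrp2*. Y-linked counts were present in 2 *Lrp2* sh2 libraries and in no *Lrp2* sh1 or ctrl sh library. Rod markers differed too: 12 of 14 were significantly higher in *Lrp2* sh2 than in *Lrp2* sh1 and than in ctrl sh, and their sum was 124 to 524 CPM in *Lrp2* sh2, 39.2 to 80.3 in *Lrp2* sh1 and 47.7 to 73.6 in ctrl sh. RPE markers also differed between the hairpins, with 7 of 10 lower and 1 higher in *Lrp2* sh2, as did macrophage markers (5 of 6 higher) and endothelial markers (6 of 6 lower). The part of these cells in the differences was not tested.

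**Figure D4:**
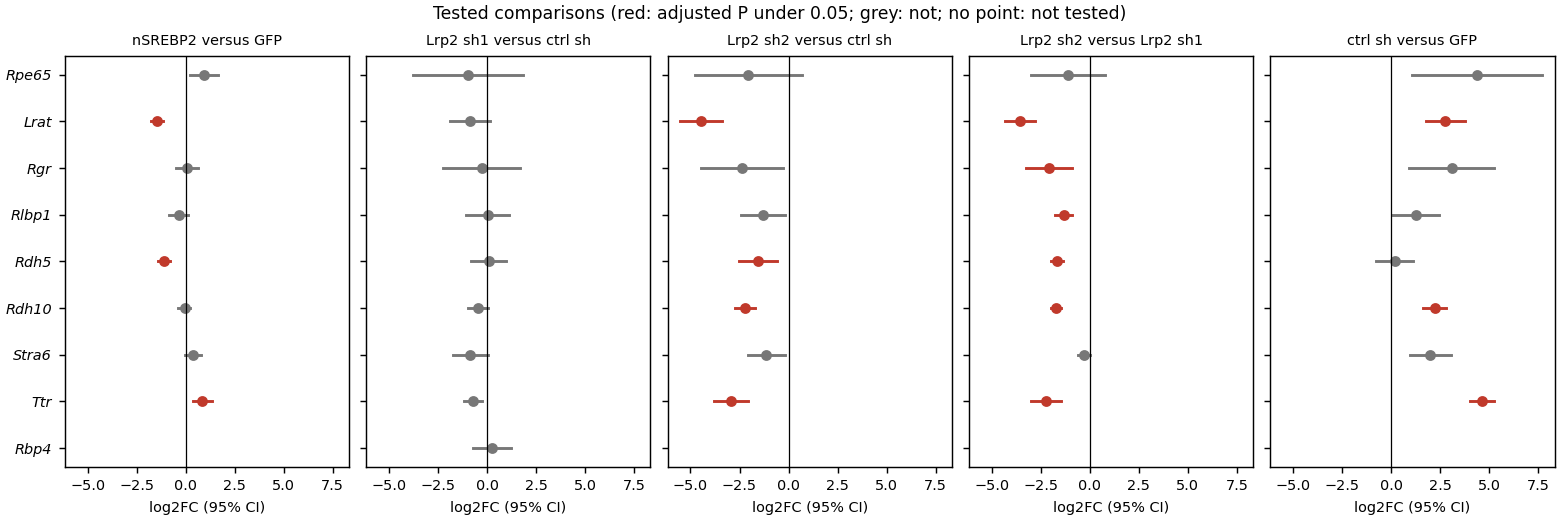
log2FC with its 95% confidence interval for each gene in the 5 tested comparisons (3 libraries a group), in red where adjusted *P* was under 0.05. *Lrat* lies left of 0 in nSREBP2 versus GFP (-1.47), *Lrp2* sh2 versus ctrl sh (-4.44) and *Lrp2* sh2 versus *Lrp2* sh1 (-3.57). The intervals of *Rpe65* are the widest in the comparisons with ctrl sh, and *Rbp4* was tested only in *Lrp2* sh1 versus ctrl sh.

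The control vectors were compared with each other because each serves as the baseline of other groups. *Ttr* was 1446 ± 433 CPM in ctrl sh and 58.6 ± 16.4 in GFP, a 24.7-fold difference (log2FC 4.62 ± 0.27, adjusted *P* = 0.000125). *Lrat* was 172 ± 121 and 25.5 ± 4.49 CPM (log2FC 2.76 ± 0.43, adjusted *P* = 0.0113), and *Rdh10* was 417 ± 166 and 88.9 ± 17.8 CPM (log2FC 2.23 ± 0.26, adjusted *P* = 0.00269). These 3 of the 8 genes tested were higher in ctrl sh and differentially expressed, against 2.68% of 18018 genes significant and 0.899% differentially expressed. The call of *Lrat* was lost without GFP replicate 1 (adjusted *P* = 0.0581) or 2 (0.0626). *Rpe65* (log2FC 4.36, 95% CI 1.04 to 7.67, adjusted *P* = 0.208), *Rgr* (3.08, 0.169), *Stra6* (1.99, 0.0628), *Rlbp1* (1.26, 0.326) and *Rdh5* (0.17, 0.916) did not pass. Without ctrl sh replicate 1, *Rpe65* had 0.39, *Rgr* 0.75 and *Rlbp1* 0.20, while *Stra6* had 1.16 (adjusted *P* = 0.0151) and *Rdh5* turned to -0.68 (0.0492). In that fit 5 of the 9 were significant, beside 430 of all genes. *Stra6* also passed without ctrl sh replicate 3 (2.30, adjusted *P* = 0.0497) and with DESeq2 (1.99, adjusted *P* = 0.0445). A level in nSREBP2 read against GFP and a level in a hairpin group read against ctrl sh therefore start from different baselines for *Ttr*, *Lrat* and *Rdh10*.

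Summed over the 9 genes, the level was 2726, 7391 and 8163 CPM in uninjected, 4009, 1748 and 1908 in ctrl sh and 1368, 2279 and 1487 in *Lrp2* sh1. It was 404, 357 and 255 CPM in GFP, 399, 318 and 280 in nSREBP2 and 350, 360 and 659 in *Lrp2* sh2. The 11 RPE markers summed to 1012 to 2371 CPM in uninjected, 1483 to 2463 in ctrl sh, 1085 to 1269 in *Lrp2* sh1, 831 to 1087 in GFP, 819 to 1103 in *Lrp2* sh2 and 457 to 644 in nSREBP2. *Ttr* made up much of the difference in the sum of the 9 genes between *Lrp2* sh1 (885 ± 213 CPM) and GFP (58.6 ± 16.4), whereas *Rdh5* was 60.6 ± 10.4 and 50.8 ± 9.39 with overlapping libraries. Examples among the RPE markers, named after their values were seen, were uneven too. *Ermn* was 22 ± 5.93 CPM in *Lrp2* sh1 and 3.33 ± 0.826 in GFP and *Slc16a8* was 94.2 ± 26.7 and 21.7 ± 6.67, while *Best1* was 2.68 ± 0.338 and 2.61 ± 0.16. Among the markers *Ermn*, *Slc16a8* and *Mertk* were below the lowest uninjected library in 14, 13 and 15 of 15 injected libraries. *Best1* and *Itgb8* were below it in 12 each, *Kcnj13* in 6, *Krt18* in 1 and *Mitf* in 0. *Otx2* and *Mfrp*, a transcription factor and a membrane protein of the RPE, were below it in 3 each. For *Otx2* and *Mfrp* the lowest uninjected library was replicate 1, and the mean of replicates 2 and 3 was 2.85 and 2.89 times its level. Their counts therefore rest on that library. Rod markers summed to 42.3 to 54.5 CPM in uninjected, 49.3 to 366 in GFP and 332 to 475 in nSREBP2. Rods hold the pigment that this pathway serves. In nSREBP2 versus GFP, 3 of 14 rod markers, 6 of 6 fibroblast markers and 6 of 6 macrophage markers were significantly higher, 4 of 6 endothelial markers were lower, and of 10 RPE markers 2 were higher and 5 lower. Mueller glia are cells of the retina, and their 7 markers summed to 998 to 1666 CPM over all libraries. Of these markers, 1 was significantly higher and 1 lower in nSREBP2 than in GFP. The part of any of these cells in the levels of the 9 genes was not tested.

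**Figure D5:**
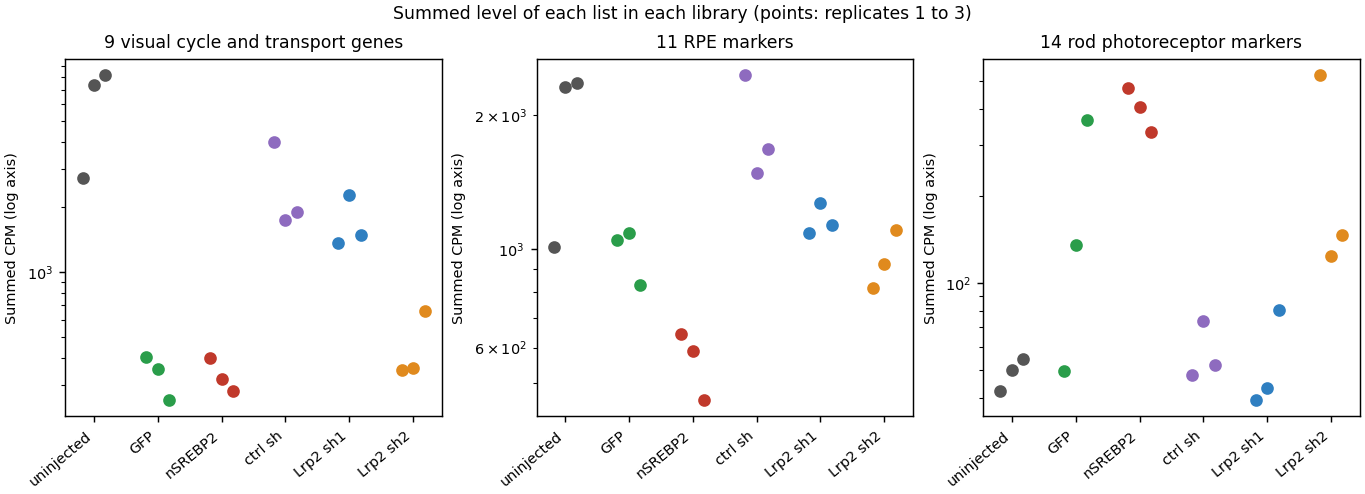
Summed CPM on log axes of the 9 genes, the 11 RPE markers and the 14 rod markers in each library, by group, with points for replicates 1 to 3. The sum of the 9 genes spans 255 to 8163 CPM, that of the RPE markers 457 to 2463 CPM, and the rod markers are highest in nSREBP2 (332 to 475 CPM) and in *Lrp2* sh2 replicate 1 (524 CPM).

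A list of 22 other genes of retinoid handling was examined in the same tests. In nSREBP2 versus GFP, 3 of the 18 tested were significantly higher and 2 lower, against 21% of all genes tested that were significant. *Rdh11*, a retinol dehydrogenase of several tissues, rose from 20.6 ± 1.21 to 57.9 ± 11.7 CPM (log2FC 1.50, adjusted *P* = 6.44e-05). *Rdh8*, the dehydrogenase of photoreceptor outer segments, rose from 0.328 to 3 CPM (log2FC 3.14, adjusted *P* = 0.00416), and *Stra6l*, a homolog of *Stra6*, had 62, 55 and 38 counts in nSREBP2 against 1, 0 and 0 in GFP (adjusted *P* = 4.81e-05). *Abca4*, the retinoid flippase, fell from 147 ± 33.8 to 59.1 ± 10.1 CPM (log2FC -1.30, adjusted *P* = 0.000661). *Scarb1* also fell (log2FC -0.33, adjusted *P* = 0.0213).

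In *Lrp2* sh1 versus ctrl sh, 1 of 17 was significant, which is near the 5.33% of all genes tested. It was *Bco1*, which cleaves beta-carotene, and it was lower (log2FC -1.69, adjusted *P* = 0.0437), from 13, 15 and 17 counts to 3, 4 and 6. In *Lrp2* sh2 versus ctrl sh, 3 of 18 were higher and 4 lower, against 18.1% of all genes tested that were significant. *Dhrs9* was 11.1 ± 0.934 CPM in *Lrp2* sh2 and 0.476 ± 0.384 in ctrl sh (log2FC 4.55, adjusted *P* = 0.000123), and *Rbp3*, the retinoid-binding protein that photoreceptors secrete, was 49.4 ± 37.5 and 3.29 ± 1.69 CPM (log2FC 3.91, adjusted *P* = 0.00152). *Rdh12*, a photoreceptor dehydrogenase, was also higher (log2FC 2.31, adjusted *P* = 0.00581), beside the rise of the rod markers given above. *Rrh*, the gene of the RPE opsin peropsin, was lower (log2FC -2.10, adjusted *P* = 0.00961).

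In *Lrp2* sh2 versus *Lrp2* sh1, 3 of 17 were higher and 6 lower, against 22.4% of all genes tested that were significant. *Dhrs9* had a log2FC of 5.16 (adjusted *P* = 1.17e-06), *Rbp3* 3.42 (0.00224), *Rdh12* 1.62 (0.0174) and *Rrh* -1.21 (0.0024). In ctrl sh versus GFP, *Rrh* was higher (log2FC 2.37, adjusted *P* = 0.0293) and *Rbp3* lower (-3.24, 0.037). These were the only 2 of 17, against 2.68% of all genes tested that were significant. The medians over the list were between -0.15 and 0.04 in the 5 comparisons, against -0.02 to 0.01 over all genes. *Rrh*, the other RPE opsin, stood at 28.9, 67.9 and 77.1 CPM in uninjected and was below the lowest of these in 14 of 15 injected libraries, with ctrl sh replicate 1 at 47.2 CPM as the exception. *Retsat*, a retinol saturase, was below the lowest uninjected library in all 15, at 12.1 to 17.9 CPM against 20.1 to 24.5.

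The genes nearest to each of the 8 genes that varied were found among 15044 genes by the root mean square (RMS) difference of centred log2 CPM over the 18 libraries, in which a small value is a like pattern. The libraries share depth and composition, so these values are descriptions. *Rpe65* had no close neighbour: *Pon1* was nearest at 1.66, then *Trhde* at 1.67 and *Ermn* at 1.80, all farther than *Rgr* at 1.08. *Rgr* was nearest to *Trhde* (0.78), *Pon1* (0.78) and *Ermn* (0.89), and *Lrat* to *Trhde* (0.72), *Slc6a20a* (0.73) and *Cntnap4* (0.75). *Trhde*, an ectoenzyme that degrades thyrotropin-releasing hormone, thus appeared for all 3 genes. *Rlbp1* was nearest to *Tmem56* (0.36), *Inpp5k* (0.37) and *Slc16a8* (0.44), and *Rdh5* to *Cspg5* (0.28), *Inpp5k* (0.32) and *Ptgds* (0.38). *Slc16a8* is the lactate transporter of the RPE, and was one of the RPE markers. *Rdh10* was nearest to *Tmem229b* (0.28), *Col9a3* (0.31) and *Slc13a3* (0.31), *Stra6* to *Lrp8* (0.36), *Rtn1* (0.40) and *Rrh* (0.40), and *Ttr* to *Adra2c* (0.68), *Slc7a10* (0.69) and *Mogat1* (0.73). The distances are to be read against the RMS of each gene about its own mean, which was 3.11 for *Rpe65*, 2.33 for *Rgr*, 2.26 for *Lrat*, 1.95 for *Ttr* and 1.12 to 1.22 for the other 4.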

How the data were processed

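RNA-seq libraries of 18 mice, 3 in each group, were used. Alignment to GRCm38 and counting were done by the authors with STAR 2.7.3a, without changed settings, and they deposited raw read counts per gene, which are not normalized. The annotation and the use of strand are not given in the sources used here. Groups and replicate numbers came from the labels, and replicates were separate mice. The members and gene lists were chosen with earlier results of these data known.

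For each tested comparison a quasi-likelihood model of edgeR 4.0.16 in R 4.3.3 was fitted to 6 libraries (filterByExpr, TMM, glmQLFit, glmQLFTest), with *P*-values adjusted over all genes tested by the method of Benjamini and Hochberg. Levels were CPM with TMM factors over 18 libraries, and log2 CPM had a prior count of 2. The scripts were tested on simulated data. Alternatives were DESeq2 1.42.0, its size factors, other filters, all libraries in one fit, sex as a term, the replicate number as a block, and leaving out libraries. Leaving out 2 or 3 libraries that stood apart was chosen after seeing the data. Positions and exon lengths came from GENCODE M21 and promoter windows from RefSeq on GRCm38.p6. Genes named were all members, up to 4 significant genes of the 22-gene list per comparison with the largest change, and the 3 nearest genes of each member that varied. *Scarb1*, *Retsat* and the RPE markers were named after their values were seen.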

Additional observations from a re-analysis of the deposited data

Results flagged for a closer look

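The effects of the hairpins against the shared ctrl sh group differed for 6 genes, by the direct test of *Lrp2* sh2 versus *Lrp2* sh1. The log2FC of that test was -3.57 for *Lrat*, -2.23 for *Ttr*, -2.09 for *Rgr*, -1.74 for *Rdh10*, -1.67 for *Rdh5* and -1.32 for *Rlbp1*, with adjusted *P* from 1.15e-05 to 0.018 (edgeR). All 3 *Lrp2* sh2 libraries lay below all 3 *Lrp2* sh1 libraries for each of the 6 genes. Groups of 3 libraries were not tested for outliers.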

How the results depend on the processing

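With 3 libraries a group and libraries that stood apart, the values of *Rpe65* and *Rgr* in comparisons with ctrl sh are the least certain, and *Rbp4* is limited by depth. Of the log2FCs of the 9 genes under settings that kept all single replicates, 244 kept direction and side of the threshold, 5 turned direction, 17 gained a call and 13 lost one. With 1 replicate left out, or with both ctrl sh 1 and *Lrp2* sh1 2 left out, these numbers were 214, 20, 11 and 10. The cause of changes was not tested.

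In nSREBP2 versus GFP, all 18 libraries in one fit gave 0 significant and 0 differentially expressed genes of the 9, beside 4162 and 1346 of all genes. So did sex as a term, with 2178 genes significant (3770 in the fit of 6 libraries), *Rpe65* at -0.09 and *Rgr* at -0.95. Leaving out 1 replicate gave 1 to 4 differentially expressed of the 9, beside 967 to 1344 differentially expressed of all genes. It gave 2481 to 4097 genes significant, *Rgr* at -0.21 to 0.39 and *Rdh10* at -0.16 to 0.10. In *Lrp2* sh1 versus ctrl sh, no filter on low counts gave 3 significant of the 9 and 1441 genes significant (949 with it). Leaving out 1 replicate gave 0 to 3 significant and 0 to 2 differentially expressed of the 9, 364 to 1298 genes significant and 110 to 221 differentially expressed (177 with all). The log2FC then ranged from -2.97 to 3.0 for *Rpe65*, -1.07 to 2.05 for *Rgr*, -0.32 to 1.07 for *Rlbp1*, -0.21 to 0.92 for *Rdh5* and -0.00 to 0.85 for *Rbp4*. Without both ctrl sh 1 and *Lrp2* sh1 2 there were 5 significant and 1 differentially expressed of the 9 (881 and 193 of all genes), with *Rpe65* at 0.99, *Rgr* at 1.25 and *Rbp4* at -0.05. In *Lrp2* sh2 versus ctrl sh, no filter gave 7 significant and 7 differentially expressed of the 9 (3733 and 1212 of all genes), and leaving out 1 replicate gave 2019 to 2727 genes significant (3268 with all) and *Rpe65* at -2.93 to 1.90. In *Lrp2* sh2 versus *Lrp2* sh1, at least 10 counts in every library left 613 genes differentially expressed (922 without), and leaving out 1 replicate gave 2626 to 3705 genes significant (4029 with all) and *Rpe65* at -1.96 to 0.91. In ctrl sh versus GFP, no filter gave 7 significant and 7 differentially expressed of the 9, with 939 genes significant and 337 differentially expressed, and leaving out 1 replicate gave 2 to 5 significant of the 9, 217 to 430 genes significant, 107 to 168 differentially expressed and *Rdh5* at -0.68 to 0.46. Without uninjected 1, ctrl sh 1 and *Lrp2* sh1 2, 6 of the 9 were lower in ctrl sh than in uninjected (3.93% of all genes), against 2 with all (2.61%), and leaving out 1 replicate gave 2 to 6.

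The replicate numbers did not pair the libraries: same-numbered libraries had correlations of -0.259 to 0.265, and the 3 of a comparison were all above 0.1 in none. With the replicate number as a block, the significant genes of the 9 were 4 in nSREBP2 versus GFP (3229 genes of all), 0 in *Lrp2* sh1 versus ctrl sh (492 genes of all, *Rpe65* at 0.23, *Rgr* at 0.71), 3 in *Lrp2* sh2 versus ctrl sh (2612), 6 in *Lrp2* sh2 versus *Lrp2* sh1 (4000) and 6, all differentially expressed, in ctrl sh versus GFP (670, of which 230 differentially expressed, *Rdh5* at -0.04).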
